A study of Mus musculus with 6 samples.

Results

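Immunity-related GTPases (IRG) and guanylate-binding proteins (GBP) are 2 families of interferon-inducible GTPases of cell-autonomous immunity. Interferon-gamma induces most of their genes, in part through IRF1, and type I interferons induce many of them as well. IRG proteins load onto the vacuoles of intracellular pathogens. Within the IRG family, the GMS proteins Irgm1, Irgm2 and Igtp (also called Irgm3) sit on the cell's own membranes and hold the effector IRG proteins inactive there, and conjugated ATG8 proteins of the autophagy machinery help to direct both families to the vacuole. GBPs coat cytosolic bacteria and vacuoles and can act beside the IRG effectors.

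The members were Iigp1, Gm4951, Igtp, Irgm1, Irgm2, Tgtp1, Gbp2, Gbp3, Gbp6 and Gbp7, followed across 6 Agilent 1-color arrays of mouse 3T3 cells, an established line of embryonic fibroblasts. All cultures received an antisense GapmeR, an oligonucleotide that leads RNase H to cut a matching RNA, at 50 nM for 48 h. Dose and time are those of the sample labels. One label is the GapmeR against the long non-coding RNA Ntep and the other GapmeR control, with 3 arrays per label from 3 independent experiments. No culture without a GapmeR was analysed here, and each label rests on 1 cell line and 1 GapmeR.

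Members were taken as probes whose gene name in the scanner files is on this list, which gave 12 probes under 9 of the 10 names, among 55681 probes and 35527 names on the array. The members were chosen by their lower signal on arrays labelled GapmeR Ntep, that is, by this same contrast. The differences of the members are therefore given as a description without a test. No probe carries the name Gbp7. The accession of the brighter of both probes named Gbp6 belongs to Gbp7 in RefSeq, and it is called Gbp7 below. The other probe named Gbp6 was not well above background on any array. By its coordinates it too lies on chromosome 3, close to the probe called Gbp7. RefSeq assigns Gbp6 itself, on chromosome 5, to 2 probes that the files name Mpa2l, which are described beside the members. The probe of Tgtp1 can share signal with Tgtp2, a near-identical copy.

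Ntep itself, A630089N07Rik in the files, had 1 probe, with a signal of 472, 91.5 and 226 in experiments 1, 2 and 3 on the GapmeR Ntep side and 271, 272 and 361 on the control side. The log2 difference was -0.48 (SE 0.58, limma adjusted p = 0.632), and experiment 1 went against its label. Arrays are therefore named by their labels, and results are also given without experiment 1. By quantitative PCR, the paper reports efficient silencing of Ntep with the GapmeR it used. Whether that PCR was run on the RNA of these arrays is not stated. The array reading rests on 1 probe, and the silencing itself was not tested further here. The share of probes well above background was 43.7% to 53.3% per array, without saturated probes. Macrophage, T and NK cell, B cell, endothelial and fibroblast markers were read as lists. Of the macrophage markers, Adgre1, Ptprc, Fcgr1, Tyrobp, Cx3cr1 and Spi1 were not well above background on any array (6 of 12), and the list went both ways. Of its 6 tested genes, 1 passed (Cd68, log2 difference 1.21), while at an unadjusted p under 0.05, and likewise with experiments as blocks, 4 were higher under GapmeR Ntep and 1 was lower. Csf1r differed by 3.19, Itgam by 1.255, Cd14 by 1.11 and Mpeg1 by -3.21. The summed signal of the list, which adds these opposite differences, ranged from 48715 to 76410 under GapmeR Ntep and from 47582 to 63874 under GapmeR control. Among 5 B cell markers, 1 was well above background on any array, against 8 of 12 T and NK cell markers, 3 of 7 endothelial markers and 12 of 12 fibroblast markers. Summed signals of the B cell, T and NK cell and endothelial lists were 103 to 115, 5336 to 7016 and 857 to 1012 under GapmeR Ntep and 146 to 167, 4535 to 5933 and 813 to 1034 under GapmeR control, and no tested gene of them passed (1 endothelial gene at an unadjusted p under 0.05, 0 by the methods' t-test). The fibroblast sum was 566096 to 756890 under GapmeR Ntep and 825321 to 916690 under GapmeR control, with 0 of 11 tested genes passing (2 at an unadjusted p under 0.05, and 0 by the methods' t-test after adjustment). The part of these marker levels in the results below was not tested. The arrays read the RNA of whole cultures, so fewer expressing cells and less RNA per cell cannot be told apart.

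The genes lie in clusters. In GRCm38.p6, Irgm1 (chr11:48865245-48871420) and Tgtp1 (chr11:48985329-48992246) belong to a group of 8 IRG genes that spans 232 kb, and Igtp (chr11:58199556-58207592) and Irgm2 (chr11:58214977-58222783) lie next to Gm12250 within 38.9 kb of the same chromosome. Gbp7 (chr3:142530336-142550151), Gbp3 (chr3:142560016-142573213) and Gbp2 (chr3:142620663-142638008) sit in a GBP group of 141 kb, and Gbp6 (chr5:105270702-105295871) in another of 334 kb. RefSeq promoter windows of this build covered 7 of the 10 members, and the 250 bases before the annotated start are printed for 6 of them, since these members had lower signals together and their windows share short motifs. Capitals mark matches to GAS (TTC and GAA, 3 bases apart), the gamma-activated site found in many interferon-gamma-inducible promoters, and to an ISRE core (GAAA and GAAA, 2 bases apart, or the same with TTTC on the opposite strand), the kind of site that IRF factors bind. GAS reads the same on both strands, and neighbouring matches to the ISRE core may overlap.
Igtp (chr11:58199306-58199555, plus strand): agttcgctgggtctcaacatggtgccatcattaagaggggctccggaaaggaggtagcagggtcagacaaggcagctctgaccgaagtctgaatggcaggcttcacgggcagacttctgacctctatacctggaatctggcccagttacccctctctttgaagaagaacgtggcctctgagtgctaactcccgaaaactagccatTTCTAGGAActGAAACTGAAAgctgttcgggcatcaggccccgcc
Irgm2 (chr11:58214727-58214976, plus strand): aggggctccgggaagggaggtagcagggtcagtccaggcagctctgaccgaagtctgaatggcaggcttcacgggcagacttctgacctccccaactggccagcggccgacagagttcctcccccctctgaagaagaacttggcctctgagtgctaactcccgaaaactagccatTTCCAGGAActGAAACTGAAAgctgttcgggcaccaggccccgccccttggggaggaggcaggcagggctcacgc
Tgtp1 (chr11:48992247-48992496, minus strand): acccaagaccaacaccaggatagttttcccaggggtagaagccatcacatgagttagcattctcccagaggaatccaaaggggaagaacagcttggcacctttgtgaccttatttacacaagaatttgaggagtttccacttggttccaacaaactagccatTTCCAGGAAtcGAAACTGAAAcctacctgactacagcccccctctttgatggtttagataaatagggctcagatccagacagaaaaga
Irgm1 (chr11:48871421-48871670, minus strand): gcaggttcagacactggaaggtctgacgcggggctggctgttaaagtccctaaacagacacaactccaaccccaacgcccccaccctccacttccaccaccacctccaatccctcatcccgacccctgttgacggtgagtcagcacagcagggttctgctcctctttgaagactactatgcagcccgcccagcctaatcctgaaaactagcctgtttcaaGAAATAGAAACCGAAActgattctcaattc
Gbp7 (chr3:142530086-142530335, plus strand): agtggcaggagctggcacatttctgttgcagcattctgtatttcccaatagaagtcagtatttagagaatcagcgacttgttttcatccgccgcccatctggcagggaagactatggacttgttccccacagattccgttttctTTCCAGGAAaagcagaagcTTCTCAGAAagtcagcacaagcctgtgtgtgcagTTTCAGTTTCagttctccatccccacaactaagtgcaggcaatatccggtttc
Gbp2 (chr3:142620413-142620662, plus strand): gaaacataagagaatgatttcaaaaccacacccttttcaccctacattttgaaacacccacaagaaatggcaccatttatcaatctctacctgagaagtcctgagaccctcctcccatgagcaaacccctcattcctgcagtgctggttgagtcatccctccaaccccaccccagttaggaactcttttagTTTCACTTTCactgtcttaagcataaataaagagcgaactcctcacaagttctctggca

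In all, 7 of 8 member windows (Gbp3 has 2 annotated starts) held an ISRE core and 4 held a GAS. Of all 32851 windows of the same length, 2.98% held an ISRE core and 7.02% a GAS. Among 10 windows of further IRG and GBP genes, 5 held an ISRE core and 4 a GAS, so neither motif was particular to the members. In Igtp, Irgm2 and Tgtp1 the GAS ends 2 bases before the ISRE core. This arrangement was noticed in the printed sequences and then searched for on both strands. It occurred in 5 of the 32851 windows (0.0152%), those of Igtp, Irgm2, Tgtp1, Tgtp2 and Gm12185, which are all IRG genes and in part near-identical copies. Irgm1 and Gbp2 held an ISRE core alone, while Gbp7 held 2 GAS matches farther from its ISRE core. Of the genes that are not members, Gm12250 and Gbp5 also held both motifs, and Gbp2b held an ISRE core alone. Windows of Ifi47, Gm5431, 9930111J21Rik1, 9930111J21Rik2 and Irgq, also IRG genes, held neither. A match is a description of letters in this window and shows no binding.

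**Figure D1:**
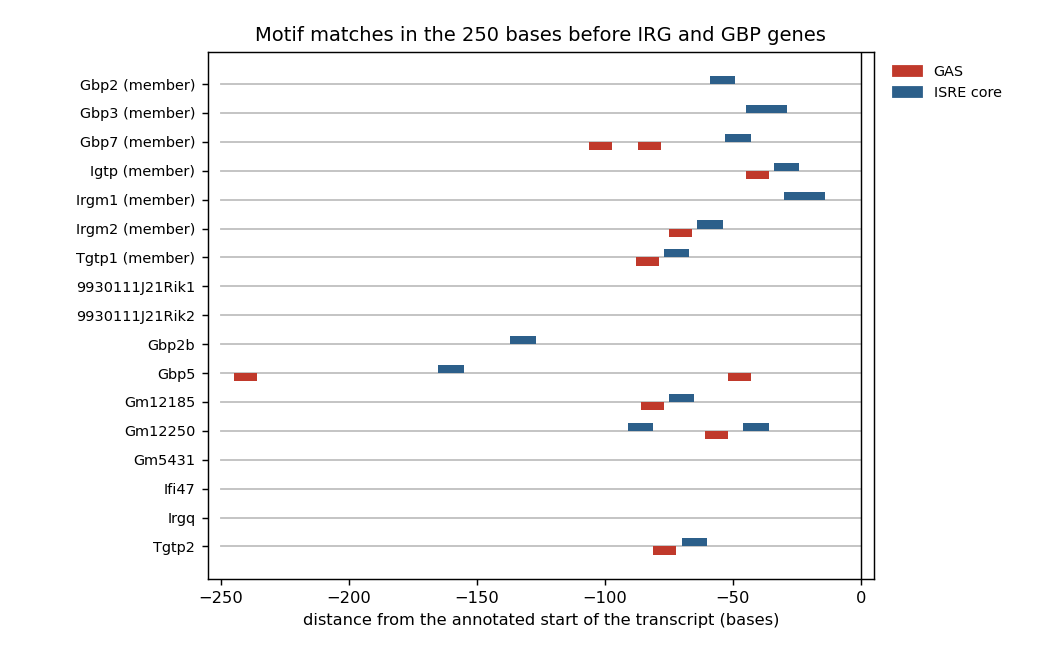
Positions of GAS (red) and ISRE core (blue) matches in the 250 bases before the annotated start of IRG and GBP genes, with distance from the start in bases on the x axis and 1 line per gene. The first annotated start is drawn for Gbp3. In Igtp, Irgm2, Tgtp1, Tgtp2 and Gm12185 the red box lies directly before the blue one.

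All 11 tested member probes had a lower signal on every array labelled GapmeR Ntep than on any array labelled GapmeR control. The groups did not overlap in this direction for 15.1% of the 30990 tested probes. All 11 were also at least 2-fold lower in each of the 3 experiments, as were 4.40% of tested probes, and 9 were at least 4-fold lower by group means, as were 1.86%. The median log2 difference over the 9 names was -2.93, and that over all tested probes was 0.06. Since this contrast was used to choose the members, nothing is read from these counts.

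**Figure D2:**
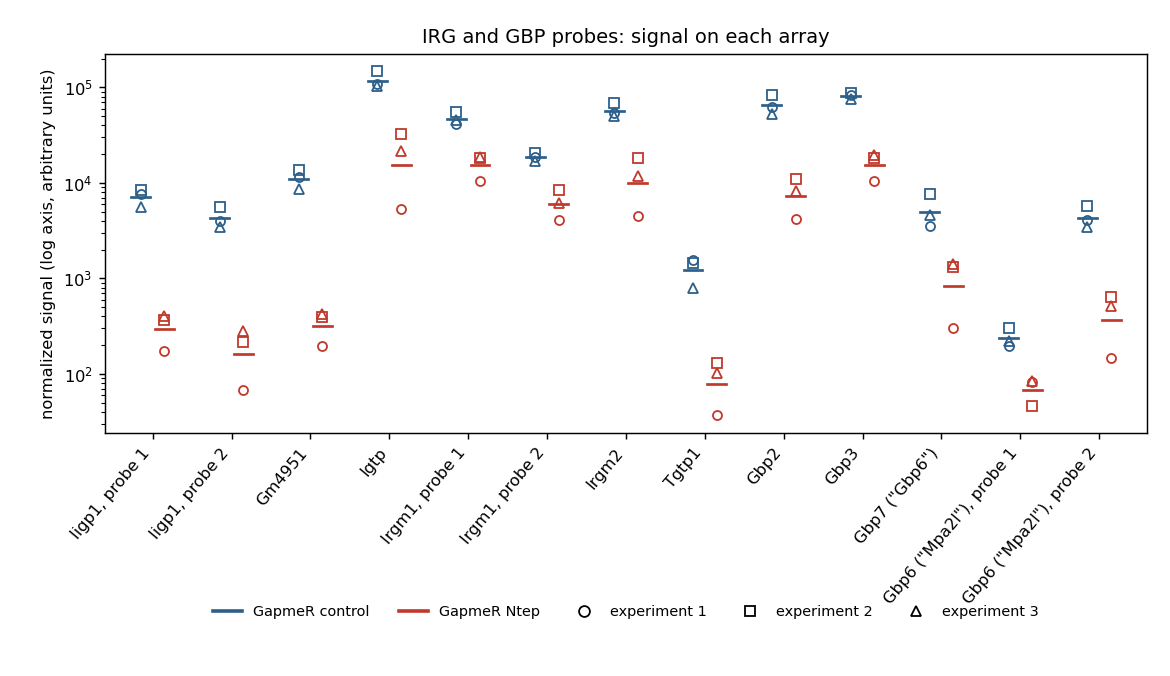
Quantile-normalized signal (log axis) of the 11 tested member probes and of the 2 probes of Gbp6 that the files name Mpa2l, on 3 arrays labelled GapmeR control (blue) and 3 labelled GapmeR Ntep (red). Symbols are experiments and bars are means of the log values. Red symbols lie below blue ones for each probe, and the red circle of experiment 1 is the lowest for all 11 member probes. Signals of different probes cannot be set against each other.

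The effector IRG gene Iigp1 encodes Irga6, a GTPase that assembles on the vacuole of Toxoplasma. Its brighter probe read 174, 368 and 399.8 on arrays labelled GapmeR Ntep of experiments 1 to 3 and 7598, 8328 and 5532 on arrays labelled GapmeR control. The groups were far apart (314 ± 122 and 7152 ± 1450, mean ± SD, n = 3 each), with a log2 difference of -4.58, or 23.9-fold. A second probe of Iigp1 gave 68.1, 215 and 278 against 4031, 5555 and 3492, a log2 difference of -4.74. Both probes ranked the arrays of each label in the same order.

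Gm4951 is an IRG gene beside Iigp1. In GRCm38.p6, Gm4951 (chr18:60212004-60248440) and Iigp1 (chr18:60373616-60392634) flank Gm4841. Signals of 195, 397 and 423 under GapmeR Ntep stood against 11589.6, 13634 and 8583 under GapmeR control. This was the largest difference among the members (log2 -5.11, 34.6-fold), and experiment 1 was again the lowest of the GapmeR Ntep arrays. Tgtp1 encodes the effector Irgb6. It read 36.7, 129.9 and 102 under GapmeR Ntep, where the array of experiment 1 was not well above background, and 1558, 1448 and 789 under GapmeR control. Its log2 difference was -3.95 (15.4-fold, and 9.28-fold without experiment 1).

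The GMS genes come next. Igtp is spotted 10 times per array, and the spots of an array varied by 2.77% to 4.27% (CV), so the spread between its arrays is far above that between spots. Its signal was 5307, 32178 and 21583 under GapmeR Ntep and 108705, 147517 and 102627 under GapmeR control. The array of experiment 1 stood well below the other two, and the label means were 19689 ± 13535 and 119616 ± 24353 (SD, n = 3 each), a log2 difference of -2.93. Without experiment 1 this became -2.22, or 4.67-fold in place of 7.64-fold. Irgm2 read 4541, 18047 and 11826 against 54381, 68912 and 49642, a log2 difference of -2.53. Irgm2, like its neighbour Igtp, was lowest in experiment 1 and highest in experiment 2 under GapmeR Ntep. Irgm1, which also acts in autophagy and in the control of mycobacteria, had the smallest difference of the members. Its brighter probe gave 10563, 18207 and 18835 against 41779, 55127 and 45777 (log2 -1.62, 3.08-fold), and its second probe 4128, 8411 and 6222 against 18695, 20614 and 16756 (log2 -1.63). The 2 probes agree within the spread of the arrays.

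The 3 GMS members differed by -2.93 to -1.62 (log2) between labels, and Iigp1, Gm4951 and Tgtp1 by -5.11 to -3.95. These ranges were also apart within each experiment, at -4.36 to -1.98 and -5.89 to -5.41 in experiment 1, -2.20 to -1.60 and -5.10 to -3.48 in experiment 2, and -2.25 to -1.28 and -4.34 to -2.95 in experiment 3. The array of Tgtp1 behind the -5.41 of experiment 1 was not well above background. The ranges did not stay apart with normexp background correction, where Tgtp1 differed by -2.63 and Igtp by -2.91. Further IRG genes, described below, did not all keep to these ranges. The effectors Ifi47 and Gm12250 differed by -3.66 and -3.46, between the ranges, and Gm12250 by -2.93 in experiment 1, inside the GMS range. Tgtp2, the copy of Tgtp1, also lay between the ranges by its brightest probe (-3.62). The same held in experiments 1, 2 and 3, at -4.74, -3.22 and -2.89. Gm4841 (-5.31) lay beyond the range of Iigp1, Gm4951 and Tgtp1. With 3 genes a side, chosen with these values known, the separation is a description of these members.

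Among the GBPs, Gbp2 is an effector that binds vacuoles and bacteria. It read 4218, 10925 and 8235 under GapmeR Ntep and 62845, 83308 and 53272 under GapmeR control, a log2 difference of -3.17 (9.02-fold). For Gbp3 the signals were 10432, 18411 and 19369.8 against 83993, 87605 and 75185, a log2 difference of -2.41. The control arrays of Gbp3 varied the least of all members (CV 7.77%). Gbp7, measured by the probe the files name Gbp6, gave 303, 1314 and 1410.0 against 3512, 7634 and 4642, a log2 difference of -2.60, which became -1.88 without the GapmeR Ntep array of experiment 1. Its control arrays differed more among themselves than those of any other member (CV 40.5%). The dim probe of the same name stayed at the minimum value of 20 under GapmeR Ntep and read 22.7, 49.4 and 44.4 under GapmeR control, and no fold is given for it. The 2 probes of RefSeq Gbp6 that fall outside the naming rule gave 145, 637 and 514 against 4092, 5663 and 3448 (log2 -3.57), and 82.2, 45.9 and 83.4 against 195, 301 and 223 (log2 -1.79). The dimmer of them was well above background on 2 of 3 arrays labelled GapmeR Ntep, and it was lowest in experiment 2, unlike the tested member probes.

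Within a label, the members shared only part of the order of the arrays. Under GapmeR Ntep, experiment 1 was lowest for 11 of 11 tested member probes, with the highest value in experiment 3 for 6 probes and in experiment 2 for 5. Under GapmeR control, experiment 2 was highest for 10 of 11 probes and experiment 3 lowest for 9. The CV was larger under GapmeR Ntep than under GapmeR control for all 11 (29.0% to 68.8% against 7.77% to 40.5%). Experiment 1 also held the largest difference for all 11. Of the 8264 tested probes that were lower in every experiment, 56.2% had their largest difference in experiment 1 and 65.9% their lowest GapmeR Ntep signal there. Their lowest GapmeR control signal was in experiment 1 for 54.0% and in experiment 3 for 28.1%. No such share was computed for the highest array of a label or for the CV, so nothing is read from those counts. Medians over the 9 names were -3.90, -2.54 and -2.25 in experiments 1, 2 and 3, against 0.03, 0.05 and 0.03 over all tested probes. Experiment 1 is the one in which the Ntep probe went against its label. Without it, the members stayed between 2.71-fold (Irgm1) and 26.4-fold (Gm4951) lower under GapmeR Ntep.

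**Figure D3:**
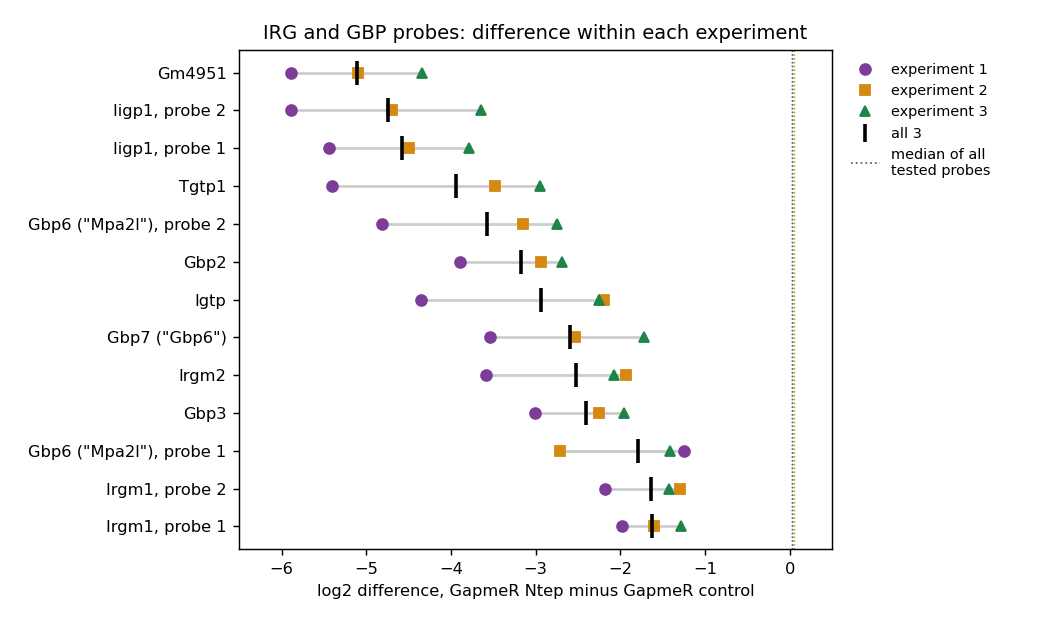
Log2 difference between the array labelled GapmeR Ntep and the array labelled GapmeR control of each experiment, for the 11 tested member probes and both probes of Gbp6 named Mpa2l, ordered by the difference over all 3 (black bars). Dotted lines are the medians of all tested probes. The purple circle of experiment 1 lies farthest to the left for all 11 member probes, and Gm4951, Iigp1 and Tgtp1 lie to the left of Igtp, Irgm2 and Irgm1.

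Other genes of both families, which are not members, were read from the fit over the whole array, in which a gene stood by its brightest probe. They belong to the same families and are near copies in part, so their direction is no independent evidence for the members. Of all 30990 tested probes, 1642 passed (5.30%), with 3.21% of all lower and 2.09% higher under GapmeR Ntep. Of 9 tested further IRG genes, 6 fell and 0 rose (limma adjusted p under 0.05), where 3.68% of 15241 genes fell and 2.33% rose. Gm4841, between Gm4951 and Iigp1, read 42.0, 153 and 171 under GapmeR Ntep and 5008, 4430 and 3112 under GapmeR control (log2 -5.31, SE 0.57, adjusted p = 0.0223), and its GapmeR Ntep array of experiment 1 was not well above background. Without that array the log2 difference was -4.67, and with normexp -4.13. Ifi47, the effector Irgd, gave 3506, 8638 and 9165 against 88115, 90227 and 70515 (log2 -3.66, SE 0.40, adjusted p = 0.0224). The effector Irgb10, named Gm12250, gave 115, 138 and 158 against 876, 2270.3 and 1675 (log2 -3.46, SE 0.38, adjusted p = 0.0223), and -2.54 with normexp. Each of these separated the labels on all arrays, and the difference of Gm12250 was smallest in experiment 1. Tgtp2 fell by 3.62 on the log2 scale, close to its copy Tgtp1 and open to shared signal. Gm12185 and 9930111J21Rik2 passed too, but neither was well above background on any GapmeR Ntep array, which leaves a fall of at least 2.29-fold and 3.86-fold, measured against the lowest signals that were well above background. Gm12185 did not pass with normexp (adjusted p = 0.0612) or with 75th percentile scaling (adjusted p = 0.07). By their brightest probes, Gm5431 (log2 -1.51, adjusted p = 0.0535), 9930111J21Rik1 (-1.35, adjusted p = 0.143) and Irgq (0.37, adjusted p = 0.455) did not pass. Second probes of the first 2 genes did pass. That of Gm5431 (adjusted p = 0.0234) was at the minimum on all GapmeR Ntep arrays, a fall of at least 3.50-fold. It reached the mean signal of 50 needed for a test through GapmeR control alone, so it had to differ to be tested. That of 9930111J21Rik1 fell by 1.98 on the log2 scale (adjusted p = 0.0307). Both genes also passed by the mean of their probes (adjusted p of 0.023 and 0.0194), which for Gm5431 takes in that second probe. The brightest probe of Gm5431 passed with experiments as blocks (adjusted p = 0.0344). Irgc1 was not tested, being at the minimum on all arrays.

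Of 6 tested further GBP genes, 4 fell and 0 rose. All 4, and the IRG genes Gm12185 and 9930111J21Rik2, reached the mean signal of 50 needed for a test through GapmeR control alone, so 6 of the 10 calls had to differ to be tested, and without that filter 2 of the 10 passed. Gbp2b, which the files name Gbp1, read 20, 68.1 and 24.4 under GapmeR Ntep and 788, 1307 and 688 under GapmeR control (log2 -4.79, SE 0.52, adjusted p = 0.0223). Gbp9 read 25.1, 50.5 and 20 against 737, 516 and 324 (log2 -4.08, SE 0.45, adjusted p = 0.0224). Each was well above background on 1 GapmeR Ntep array, and normexp gave -2.69 and -2.004 in place of these differences. Gbp4 and Gbp11 were not well above background on any GapmeR Ntep array, so that their falls are bounds of at least 9.44-fold and 5.09-fold (adjusted p of 0.0157 and 0.0158). Gbp10 (log2 -0.70, adjusted p = 0.21) and the brightest probe of Gbp5 (-0.17, adjusted p = 0.834) did not pass. A second probe of Gbp5 gave 70.1, 204 and 233 against 1349.9, 1456 and 832, a log2 difference of -2.98 that passed (adjusted p = 0.0361), so the 2 probes of Gbp5 disagree. The mean of both passed too (log2 -1.58, adjusted p = 0.0292). Gbp8 was at the minimum throughout.

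Leaving out single arrays changed these calls. Of the 10 IRG and GBP genes that passed, 8 passed without array 1 of GapmeR Ntep and 8 without its array 2, where 540 and 1403 probes of the whole array did. Without array 1 of GapmeR control, 3 passed, beside 141 of all probes, and without its array 3, 1 passed, beside 5 of all probes. No probe of the whole array passed limma without array 2 of GapmeR control or array 3 of GapmeR Ntep. Of all 15 tested further IRG and GBP genes, 11 to 13 had an unadjusted p under 0.05 in these 6 fits. Without both arrays of experiment 1, 4 passed, namely Ifi47, Gm12250, Tgtp2 and Gm4841, beside 865 of all probes.

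Among further interferon-inducible large GTPases, Gvin1, a very large GTPase, read 709, 1302 and 1598 against 9136, 12613 and 10001 and fell (log2 -3.20, SE 0.34, limma adjusted p = 0.0218). The antiviral GTPases Mx1 (log2 -3.83, SE 0.82, adjusted p = 0.0542) and Mx2 (-2.20, SE 0.60, adjusted p = 0.0891) did not pass. Mx1 passed with experiments as blocks (adjusted p = 0.0397), without GapmeR Ntep array 1 (log2 -2.85, adjusted p = 0.029) and without experiment 1 (log2 -2.97, adjusted p = 0.0461). Mx2 differed by -1.51 without GapmeR Ntep array 1 and by -1.59 without experiment 1.

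Signalling genes upstream of both families were read in the same fit. Of 5 tested interferon ligands and receptors, 2 fell and 0 rose (list median -0.09). Ifnb1, the interferon-beta ligand, read 479, 1058 and 862 under GapmeR Ntep and 6055, 4440.4 and 2857 under GapmeR control (log2 -2.49, SE 0.40, adjusted p = 0.0335), and without experiment 1 it did not pass (log2 -1.90, adjusted p = 0.0589). The ligand-binding chain of the interferon-gamma receptor, Ifngr1, read 9480.1, 13706 and 9573 against 33489, 25037 and 23866 (log2 -1.34, SE 0.24, adjusted p = 0.0376). Its partner chain Ifngr2 differed by 0.04 (adjusted p = 0.908). Ifng, the interferon-gamma ligand, was at the minimum on all arrays. Neither Ifnar1 nor Ifnar2, the chains of the type I receptor, passed.

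Of 11 tested JAK, STAT and IRF regulators, 2 fell and 0 rose (list median -0.84). The MHC class I transactivator Nlrc5 gave 478, 411 and 451 against 18047, 12167 and 8197 (log2 -4.77, SE 0.31, adjusted p = 0.0157), and the mean of its probes gave -3.63 (adjusted p = 0.0137). Irf9, a DNA-binding part of the complex that binds the ISRE, fell by 1.03 on the log2 scale (SE 0.16, adjusted p = 0.0300). Irf1 read 46682, 55445 and 45230.4 against 109354, 88813 and 69452 by its brightest probe and did not pass (log2 -0.84, SE 0.22, adjusted p = 0.0835). It passed by the mean of its probes (log2 -1.49, adjusted p = 0.042) and with array weights (adjusted p = 0.021). Of 6 inhibitors of this signalling, 2 fell and 0 rose (list median -0.58). They were Usp18 (log2 -2.20, SE 0.42, adjusted p = 0.0436), which blocks the type I receptor, and Socs1 (-0.88, SE 0.18, adjusted p = 0.0481), which blocks JAK kinases.

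Genes of the machinery that directs IRG and GBP proteins to vacuoles were read too. Of 10 ATG8 conjugation genes, 1 rose and 0 fell (list median 0.21), beside 2.33% of all genes that rose. At an unadjusted p under 0.05, 3 were higher and 1 was lower. The lower one was Atg7, which differed by more than any riser of the list but did not pass (limma log2 -1.11, SE 0.24, adjusted p = 0.0529). The gene that rose was the ATG8 protein gene Gabarapl1, at 129259, 114956 and 131266 against 57639.8, 72699 and 67762 (log2 0.93, SE 0.17, adjusted p = 0.0412). It did not pass with 75th percentile scaling (adjusted p = 0.0506), without the filter, by the methods' t-test or on omission of any single array. Some of the signalling genes that fell had similar limits. With 75th percentile scaling Ifngr1, Irf9 and Socs1 did not pass (limma adjusted p of 0.0579, 0.0627 and 0.0959). Without the filter Ifnb1, Ifngr1, Usp18 and Socs1 did not. Of 5 genes of vacuole ubiquitination, 0 passed by limma, 4 had an unadjusted p under 0.05 (2 lower and 2 higher), and 0 passed by the methods' t-test after adjustment.

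With experiments as blocks, 16 of these pathway genes passed in place of 7. Falls then numbered 2 among ligands and receptors, 6 among regulators, 3 among inhibitors and 2 among ubiquitination genes, and rises 2 among ATG8 genes and 1 among ubiquitination genes, where 8.91% of all genes fell and 7.13% rose in that fit. Without experiment 1, 2 pathway genes passed, Nlrc5 and Irf7.

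**Figure D4:**
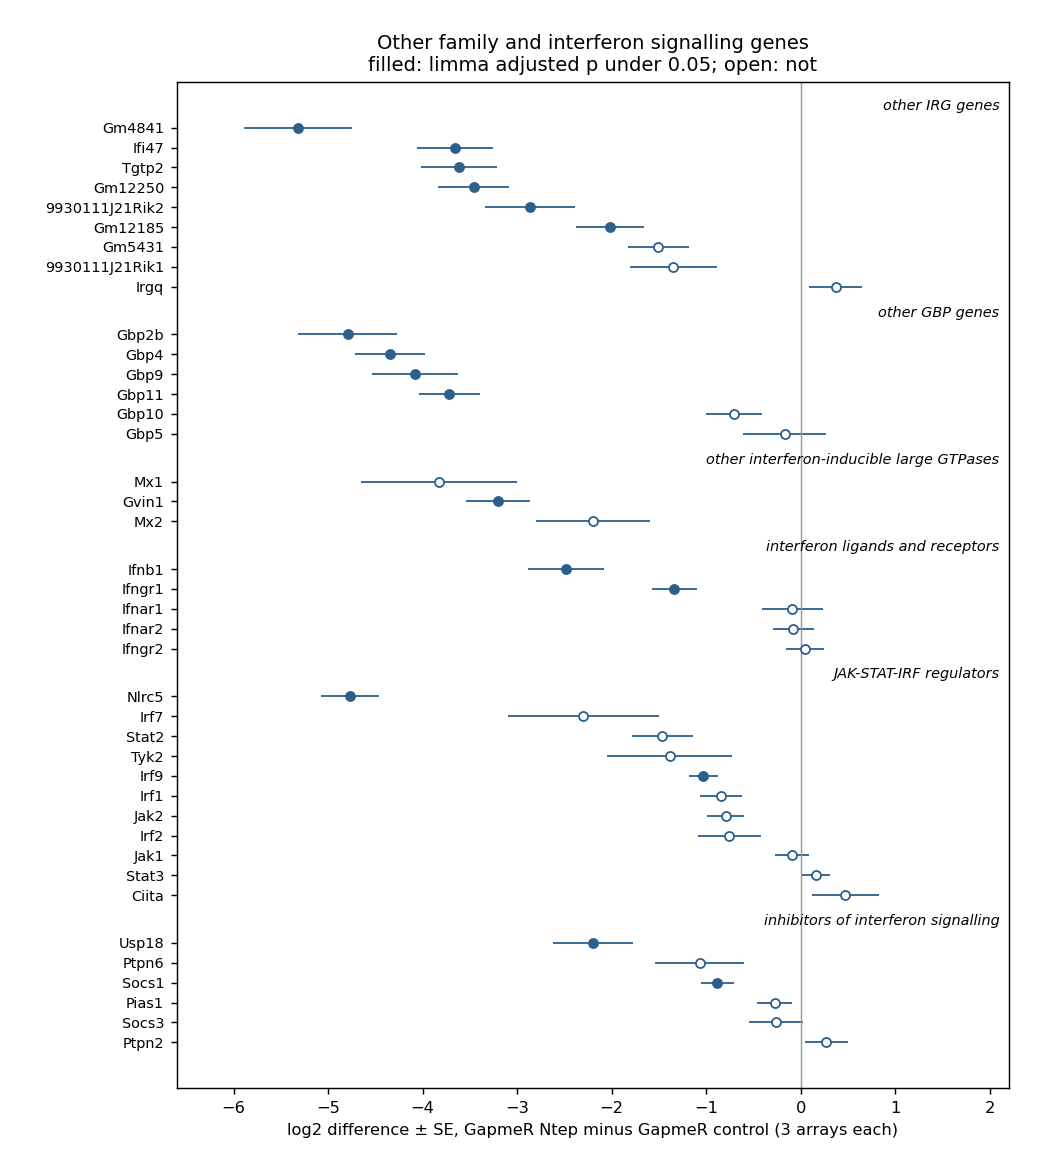
Log2 difference with SE (3 arrays per label, limma) for IRG and GBP genes that are not members, further large GTPases, and genes of interferon signalling, 1 probe per gene. Filled points passed at an adjusted p under 0.05. Filled points lie to the left of 0, from Irf9 and Socs1 near -1 to Gm4841 at -5.31, while Ifngr2, Ifnar1, Ifnar2, Jak1 and Stat3 lie near 0.

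Beside other interferon-inducible groups, the median of the members (-2.93) stood next to -1.41 for immunoproteasome and peptide loading genes, of which 5 of 9 fell, and -2.14 for the IFIT genes, Isg15, Rsad2 and Usp18, of which 3 of 6 fell, with 0 rises in both, where 3.68% of all genes fell. With experiments as blocks 9 and 5 of them fell, where 8.91% of all genes did, and by the methods' t-test 1 and 0 passed. These lists too were set with earlier results known, and the difference between the medians was not tested. In experiments 1, 2 and 3 the medians were -1.86, -1.33 and -1.36 for the first list and -3.29, -1.71 and -1.51 for the second. Genes of the first list ran from -5.89 (Psmb8, well above background on 1 GapmeR Ntep array) to -0.67 (Psme2). Some of them, such as Psmb9 (-4.70), differed by more than the median of the members.

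Genes around the clusters were read to place the members in their surroundings. Of the 3 nearest tested genes on each side of 5 clusters, 14 were lower and 16 higher under GapmeR Ntep, and 2 of the 30 passed, BC023105 and Dctn4, which both lie beyond Iigp1. Over the whole array 6.01% of genes passed. With experiments as blocks 3 of the 30 passed, and by the methods' t-test 0. BC023105 read 20, 47.0 and 20 against 506, 459 and 289 (limma log2 -3.93, SE 0.42, adjusted p = 0.0218) and was well above background on 1 GapmeR Ntep array, and normexp gave -1.81. It reached the mean signal of 50 needed for a test through GapmeR control alone, so it had to differ to be tested. Dctn4, a dynactin subunit gene, rose by 1.76 on the log2 scale (SE 0.29, adjusted p = 0.0335). Without the filter neither gene passed (limma adjusted p of 0.0534 for BC023105 and 0.0849 for Dctn4).

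The 5 tested genes outside the list whose log2 values over the 6 arrays were most like the mean of the members, by Pearson's r among 15231 genes, were Parp14 (r = 0.999), Tor3a (0.999), Batf2 (0.999), Dnajc1 (0.998) and Phf11d (0.998). The 6 points fall into the same 2 label groups for every gene, and no p is given. Parp14 read 9112, 21948 and 19612 under GapmeR Ntep and 90516, 96222 and 78608 under GapmeR control. The sizes differed among these genes, as Dnajc1 differed by -0.93, -0.58 and -0.56 in experiments 1 to 3 and Phf11d by -4.91, -3.67 and -3.12.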

How the data were processed

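The authors extracted spot intensities with Agilent Feature Extraction 10.7.3.1, as the submitters' processing notes give it, and deposited 1 file per array (background-subtracted intensity, linear scale, not normalized between arrays) and a table of quantile-normalized intensities with values under 20 set to 20. From the scanner files, spots of a probe were averaged, arrays quantile normalized, values under 20 set to 20, and log2 values compared with limma 3.58.1 (lmFit, eBayes) in R 4.3.3, without pairing. Tested were 30990 probes that reached a mean signal of 50 under 1 or both labels, and p-values were Benjamini-Hochberg adjusted over them. A gene stood by its probe with the highest mean over the 6 arrays. Probes were matched to RefSeq symbols of GRCm38.p6 by accession, symbol or older symbol (31239 probes, 22942 genes). Probe coordinates in the files are those of mm9, and exon and UTR annotation of the probes was not used here.

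Replicate numbers are the experiments, which the supplementary workbook of the study pairs by culture day. Residuals of same-numbered arrays correlated at 0.466, 0.300 and 0.254, and those of differently numbered arrays at -0.327 to 0.126. The pairing was taken from the workbook, and a fit with experiments as blocks was run beside the unpaired one. Labels and methods name different RNA kits, and methods and workbook different formats of this array. The workbook also states the GapmeR dose differently from the labels, whose dose is given above. With 3 arrays per label, their number limits the precision, and a permutation test cannot give a p below 0.1.

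One gene of the regulator list is not reported here. Members and gene lists were chosen with earlier results of these data known. Named were all members, all further IRG, GBP and large GTPase genes tested, pathway genes that passed, Ifng, Ifnb1, Ifngr1, Ifngr2 and Irf1, and the 5 genes most like the members. Other genes are named only as exceptions or as members of a counted set, chosen after their values were seen. Alternatives were 75th percentile scaling, normexp, the authors' normalized values, a floor of 5, other filters, array weights, experiments as blocks, the methods' t-test, the mean of a gene's probes, the omission of each array and, chosen after seeing the data, of experiment 1. The steps were tested on simulated data. Promoter windows are RefSeq's for GRCm38.p6, and none was given for Iigp1, Gm4951 or Gbp6.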

Additional observations from a re-analysis of the deposited data

How the results depend on the processing

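Every member kept a lower signal under GapmeR Ntep in each alternative run for it. The median log2 difference over the 9 names stayed within 1 SD of the experiments of its value of -2.93, at -2.79 with 75th percentile scaling, -2.63 with normexp, -2.92 with the authors' values, -2.22 without experiment 1 and -3.46 to -2.16 when single arrays were left out. Of the differences of single members, 1 moved by more than the spread of its experiments, that of Tgtp1 with normexp (-2.63), which raises dim signals. Scaling to the 75th percentile set the median of all tested probes to 0.22 in place of 0.06. Counts moved more. Probes passing numbered 2538 with normexp, 564 without a filter on dim probes, 2884 with probes well above background in a group, 4292 with experiments as blocks, 10260 with array weights, 285 with the methods' t-test (1457 at at least 2-fold and an unadjusted p under 0.01, the study's limits, where limma gave 2520), 865 without experiment 1, and 0 to 1403 when single arrays were left out. Further IRG and GBP genes passing numbered 2 without the filter, 1 with the t-test, 4 without experiment 1 and 0 to 8 without single arrays. Pathway genes passing numbered 3 with 75th percentile scaling, 14 with normexp, 3 without the filter, 13 with probes well above background, 16 with blocks (the pairing changed no call of a passing gene), 20 with array weights, 3 with the t-test, 2 without experiment 1, 12 with the mean of a gene's probes and 0 to 6 without single arrays. The fit without a filter tests more probes, and the t-test does not share the spread between probes. The cause of the other shifts was not tested. Of 21 genes described as passing (IRG, GBP and pathway genes, Gvin1, Cd68, BC023105 and Dctn4), all passed with the authors' values, a floor of 5, flagged spots left out, blocks, array weights, probes well above background and the mean of a gene's probes, 20 with normexp, 16 with 75th percentile scaling, 7 without experiment 1, 5 without the filter and 3 with the t-test. Ifngr2 changed direction with array weights (-0.031) and on omission of GapmeR Ntep 1 (-0.059) or of GapmeR control 2 (-0.078), within -0.078 to 0.138 over single arrays. The brightest probe of Gbp5 did so on omission of GapmeR control 1 (0.188) or of GapmeR Ntep 2 (0.073), within -0.531 to 0.188. Neither had passed. Signals near the minimum of 20, such as those of Gbp4, Gbp11 and Gbp2b under GapmeR Ntep, limit what a fold can show.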
